A study of Saccharomyces cerevisiae with 6 samples.

Results

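SUC2, MAL12, MAL32, MAL11, IMA1 and IMA5 encode the yeast proteins that split or import sucrose, maltose and isomaltose. They were taken by name, and all 6 were found among the 5028 genes of the filtered count table. RNA-seq was performed on poly(A) RNA of BY4741, a wild-type laboratory strain of Saccharomyces cerevisiae derived from S288C. In the Sucrose group, 3 cultures were harvested directly from medium with 2% sucrose at an OD600 of 0.45. In the NoSucrose group, 3 cultures grown in the same way were collected on a filter and held for 16 min in sucrose-free medium with 2% glycerol and 2% ethanol. The comparison asks how withdrawal of the disaccharide altered the transcripts of its own utilization genes. Filtration and transfer changed together with the carbon source, and no filtered Sucrose culture was analysed here, so the effects of handling and of sucrose removal cannot be told apart.

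SUC2 encodes invertase, which splits sucrose into glucose and fructose. Most of the enzyme is secreted and acts outside the cell, and a shorter transcript gives a form that stays inside. Maltose and related α-glucosides are instead imported by proton symporters and cleaved in the cytosol by maltases and isomaltases, many of which lie in clusters near chromosome ends. SUC2 is a textbook case of glucose repression: Mig1 and Mig2 recruit the Cyc8-Tup1 corepressor when glucose is plentiful, and the kinase Snf1 relieves this when glucose runs low. MAL genes are under the same repression and are also induced by maltose through a MAL activator. The activator genes of S288C, MAL13 and MAL33, are annotated as nonfunctional.

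Estimated counts per library lay between 25106494 and 33651822, and Pearson's r of log2 CPM between replicates ranged from 0.987 to 0.998 across genes. LEU2, URA3 and MET17, which BY4741 lacks, had 0 counts in every column of the unfiltered table, and HIS3, of which the strain keeps part, had between 1164 and 3414 counts. Levels are given as CPM, the count relative to the library total after scaling by TMM factors. A transcript was called when edgeR's quasi-likelihood test gave a Benjamini-Hochberg adjusted p below 0.05 over all 5011 genes tested and a fold change above 2.

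All 6 transcripts were more abundant after sucrose withdrawal, and 5 of the 6 were called in the upward direction and none downward. Of all tested transcripts, 18.7% were called, 12.7% upward and 6.03% downward. IMA5 passed the p threshold but not the fold threshold. The median log2 fold change of the 6 was 2.30, against 0.03 for all tested transcripts. In each of the 6 the NoSucrose libraries lay above the Sucrose libraries without overlap, as they did for 43.7% of all tested transcripts, while 84.8% showed no overlap in one direction or the other. In RNA from whole cultures, more cells with a transcript and more of it per cell cannot be told apart.

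**Figure D1:**
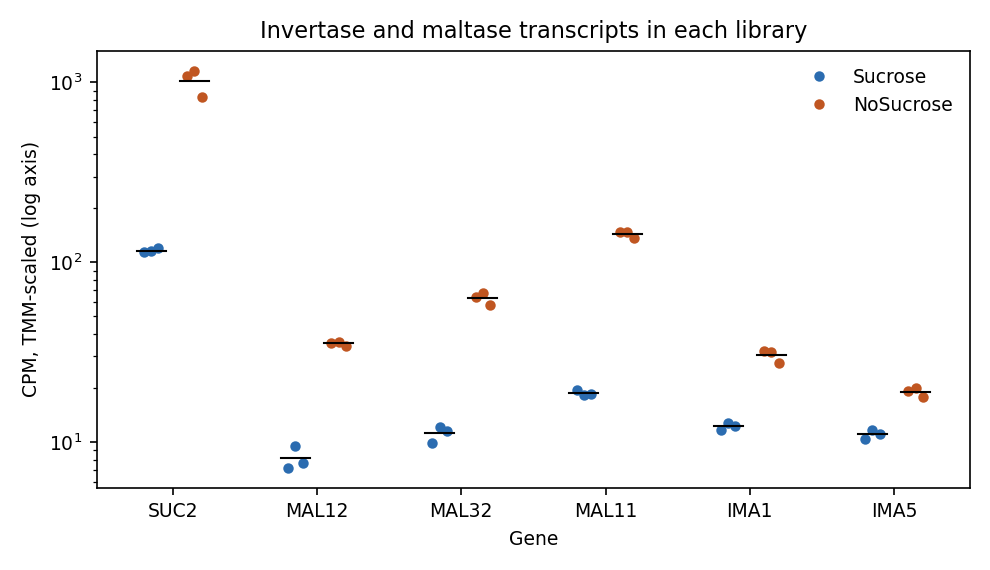
CPM (TMM-scaled, log axis) of the 6 transcripts in each library. Points are single libraries (3 per condition) and bars are means. SUC2 stands highest in both conditions, between 114 and 119.9 CPM in Sucrose and between 827 and 1164 CPM in NoSucrose, and the conditions lie closest together for IMA5.

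SUC2 (YIL162W, chromosome IX, 37385 to 38983 in R64, plus strand, 1 coding segment) was the most abundant of the 6 in both conditions. It stood at 114, 115 and 119.9 CPM in Sucrose replicates 1, 2 and 3. In NoSucrose replicates 1, 2 and 3 it stood at 1083, 1164 and 827 CPM. Every NoSucrose library was far above every Sucrose library, and replicate 3 was the lowest of the NoSucrose libraries. The means were 116 ± 3.34 and 1025 ± 176 CPM (SD, n = 3 each), an 8.82-fold increase with a 95% interval from 7.19 to 10.8. On the log2 scale the change was 3.14 ± 0.13 (SE; edgeR, adjusted p = 3.96e-07), and its place among the 5011 was 103. No window of 50 bases in the SUC2 coding sequence occurred in another annotated coding sequence, so its counts did not depend on a division between copies. Reads of the transcripts for the secreted and the internal form were counted together.

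The spread of SUC2 was wider after withdrawal, with an SD of 0.04 between Sucrose libraries and 0.26 between NoSucrose libraries on the log2 scale. The same SD rose from 0.05 to 0.07 for MAL11 and from 0.06 to 0.13 for IMA1. It fell from 0.22 to 0.04 for MAL12, from 0.16 to 0.12 for MAL32 and from 0.09 to 0.08 for IMA5. NoSucrose replicate 3 was the lowest NoSucrose library for 6 of the 6 transcripts, by 0.29 below the condition mean for SUC2 and by 0.05 for MAL12 (log2 CPM). How many of all tested transcripts were lowest in that library was not counted. Without that library the log2 fold change of SUC2 was 3.28.

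MAL11 (also called AGT1, YGR289C, chromosome VII, 1073963 to 1075813, minus strand) encodes a broad α-glucoside symporter that takes up maltose, sucrose and trehalose. Its level was 19.6, 18.2 and 18.6 CPM in Sucrose replicates 1, 2 and 3, and 148, 148 and 136 CPM in the NoSucrose replicates. The 2 conditions were far apart, and the standard error of the change was the smallest of the 6 genes. The increase was 7.65-fold (95% interval 7.02 to 8.34), or 2.94 ± 0.05 on the log2 scale (SE, edgeR, adjusted p = 3.76e-08). Like SUC2, MAL11 shared no window of 50 bases with another coding sequence.

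MAL12 (YGR292W, chromosome VII, 1076599 to 1078353) and MAL32 (YBR299W, chromosome II, 805351 to 807105) encode maltases, which also cleave sucrose. Both lie on the plus strand with 1 coding segment each. The pair is 99.54% identical over 1755 bases, with 8 differences, and 82.2% of their 50-base windows were the same. Positions count from the first base of the start codon, with the base of MAL12 first. The differences are C222T, T249C, T258C, G420A, G913C, C1399T, C1416T and A1614G. Only reads that reach one of them could tell the copies apart within the coding sequence. The stretches with 2 differences each are shown from 5′ to 3′ with the differing bases in capitals.
MAL12, chrVII:1076837-1076866: ggcccacataTggtaccaaTgaggactgtt
MAL32, chrII:805589-805618: ggcccacataCggtaccaaCgaggactgtt
MAL12, chrVII:1077987-1078016: accttggtttCtcttgaatgaatctttCga
MAL32, chrII:806739-806768: accttggtttTtcttgaatgaatctttTga

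Because the counting could divide reads between these copies, their sum is the safer value. The summed pair stood at 17.1, 21.8 and 19.1 CPM in Sucrose replicates 1, 2 and 3, and at 100.1, 104 and 91.9 CPM in the NoSucrose replicates. All 3 NoSucrose values were above all 3 Sucrose values. The sum rose 5.08-fold (95% interval 4.40 to 5.86), or 2.34 ± 0.09 on the log2 scale (SE, edgeR, adjusted p = 2.93e-07).

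Taken separately, MAL12 was assigned 7.19, 9.57 and 7.63 CPM in Sucrose and 35.8, 36.2 and 34.2 CPM in NoSucrose replicates 1, 2 and 3. MAL32 was assigned 9.88, 12.2 and 11.5 CPM, and then 64.3, 67.9 and 57.6 CPM. MAL32 thus received more counts than MAL12 in each of the 6 libraries. Their log2 fold changes were 2.11 ± 0.10 for MAL12 (SE, edgeR, adjusted p = 9.04e-07) and 2.49 ± 0.09 for MAL32 (SE, edgeR, adjusted p = 2.89e-07). Of the counts of the pair, MAL12 took 42.1%, 43.8% and 40.0% in the Sucrose cultures and 35.8%, 34.8% and 37.3% in the NoSucrose cultures (replicates 1, 2 and 3). The conditions did not overlap, and a two-sided exact permutation test gave p = 0.1, its lower limit with 3 libraries on each side. The division rests on few bases, and its accuracy was not tested.

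IMA1 (YGR287C, chromosome VII, 1067222 to 1068991, minus strand) encodes the major isomaltase, which cleaves the α-1,6 bond of isomaltose. It stood at 11.7, 12.8 and 12.3 CPM in Sucrose replicates 1, 2 and 3, and at 32.1, 31.7 and 27.4 CPM in the NoSucrose replicates. The groups were well apart. IMA1 rose 2.47-fold (95% interval 2.16 to 2.82), or 1.30 ± 0.08 on the log2 scale (SE, edgeR, adjusted p = 2.97e-06). Of its 50-base windows 91.9% were found in no other coding sequence.

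IMA5 (YJL216C, chromosome X, 24341 to 26086, minus strand) encodes a more distant isomaltase, 64.7% identical to IMA1 in its coding sequence, with no shared 50-base window. Its level was 10.4, 11.7 and 11.1 CPM in Sucrose and 19.2, 20.1 and 17.9 CPM in NoSucrose replicates 1, 2 and 3. The groups did not overlap, but the change was the smallest of the 6. The ratio was 1.72 (95% interval 1.51 to 1.96), or 0.78 ± 0.08 on the log2 scale (SE, edgeR, adjusted p = 4.03e-05), below the fold threshold of 2.

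The order of the log2 fold changes was therefore SUC2, MAL11, MAL32, MAL12, IMA1 and IMA5. All 15 pairs of genes were compared by the difference of their log2 CPM within each library, which is free of scaling between libraries. SUC2 exceeded MAL11 by 2.62 ± 0.08 in Sucrose and by 2.82 ± 0.19 in NoSucrose (SD, n = 3 each). This difference overlapped between the conditions, so the larger fold change of SUC2 over MAL11, by 0.20 on the log2 scale, was within the replicate spread (two-sided exact permutation p = 0.3, adjusted p = 0.3). For the other 14 pairs the conditions did not overlap (exact p = 0.1 each, the smallest possible, adjusted p = 0.107). How many pairs among all tested transcripts would not overlap was not counted, and 84.8% of single transcripts did not. MAL32 against MAL12 gave the next smallest change, 0.37, and is subject to the division of reads. IMA1 against IMA5 gave 0.52, and SUC2 against IMA5 the largest, 2.34.

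Together the 6 genes made up 0.0166%, 0.0173% and 0.0173% of each Sucrose library (replicates 1, 2 and 3) and 0.143%, 0.150% and 0.117% of each NoSucrose library, an 8.01-fold higher mean share (two-sided exact permutation p = 0.1). SUC2 made up most of this. Its share of the counts of the 6 genes was 65.9%, 64.0% and 66.3% in Sucrose and 78.3%, 79.3% and 75.2% in NoSucrose. The composition thus shifted toward invertase without overlap of the conditions (two-sided exact permutation p = 0.1). Per coding length, which allows genes to be compared, SUC2 held 67.8% ± 1.18 in Sucrose and 79.6% ± 2.00 in NoSucrose (SD, n = 3 each).

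**Figure D2:**
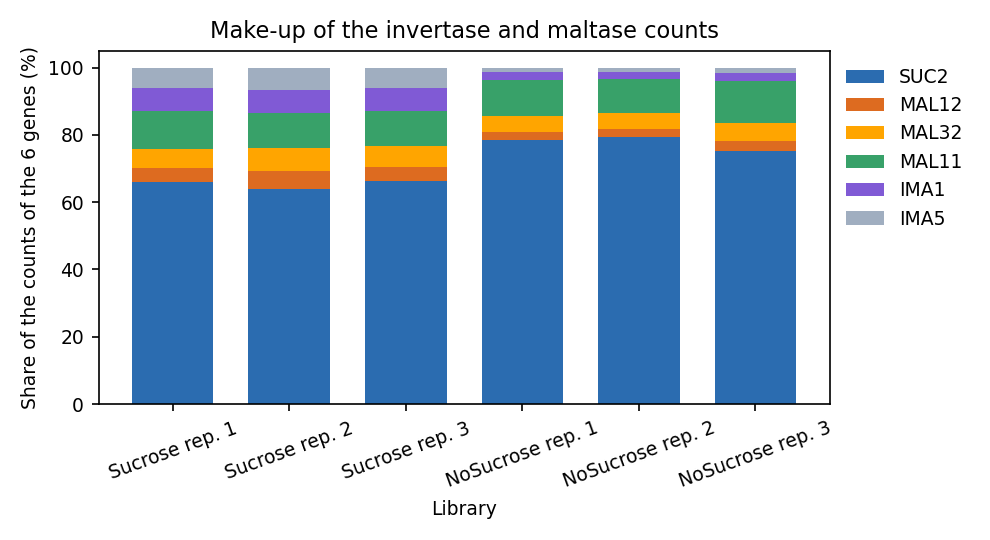
Share of each gene in the summed estimated counts of the 6 genes (%, not corrected for length) in each of the 6 libraries. The SUC2 segment grows from between 64.0% and 66.3% to between 75.2% and 79.3%, while those of MAL12, MAL32, IMA1 and IMA5 shrink.

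In levels per kilobase of coding sequence, SUC2 was the only one of the 6 above the median transcript in sucrose medium, at 72.6 ± 2.09 CPM per kb (SD, n = 3) against a median of 49.4. It was higher than 61.8% of 4988 transcripts there and than 94.4% in NoSucrose, where it reached 641 ± 110.1 CPM per kb (SD, n = 3). MAL11 followed with 10.2 ± 0.378 CPM per kb (SD, n = 3), above 8.44% of transcripts. After withdrawal it stood at 77.8 ± 3.86 (SD, n = 3), above 62.2%. The transporter transcript thus passed the median of 55.0 CPM per kb in NoSucrose, whereas the maltase and isomaltase transcripts, counted separately, did not. For MAL12 and MAL32 this depends on the division of reads. Their sum, 98.7 CPM in NoSucrose over a coding length of 1.755 kb, lay just above that median per kb. In Sucrose the levels of IMA1, MAL32 and IMA5 were 6.93 ± 0.291, 6.38 ± 0.686 and 6.33 ± 0.377 CPM per kb (SD, n = 3 each), with ranges that overlapped, and MAL12 was at 4.63 ± 0.719. In NoSucrose they separated into 36.0 ± 2.97 for MAL32, 20.2 ± 0.595 for MAL12, 17.2 ± 1.48 for IMA1 and 10.9 ± 0.630 for IMA5 (CPM per kb, SD, n = 3 each). IMA5, although its level rose, kept almost the same place among all transcripts, above 5.59% in Sucrose and 5.71% in NoSucrose.

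Other genes of α-glucoside use and relatives of the MAL activators were followed as a list of 10. Among them, IMA3, YPR196W and YFL052W had no row under these names in the filtered table. Of the 7 tested, 5 were called upward and none downward, against 12.7% and 6.03% of all tested transcripts. Their median log2 fold change was 1.68, against 0.03 for all tested transcripts. MAL31, the maltose permease beside MAL32, stood at 28.0, 26.9 and 27.6 CPM in Sucrose replicates 1, 2 and 3 and at 248, 247 and 259 CPM in the NoSucrose replicates. This was a 9.14-fold increase (95% interval 8.50 to 9.84, adjusted p = 2.5e-08, edgeR's quasi-likelihood test), close to that of SUC2. MAL31 is 59.4% identical to MAL11 in coding sequence and shared no 50-base window with it, so their increases were counted from separate reads.

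The activator genes rose as well. MAL33 rose 4.05-fold (95% interval 3.61 to 4.55) and MAL13 3.20-fold (2.74 to 3.75), with adjusted p of 2.35e-07 and 2.01e-06 in edgeR's test. These transcripts increased although the proteins are annotated as nonfunctional in S288C. MPH2 and MPH3, subtelomeric maltose permeases, share 96.4% of the windows of MPH2 and 97.5% of those of MPH3 and had between 2.86 and 7.49 CPM. Their log2 fold changes were 0.30 (standard error 0.22, 95% interval -0.22 to 0.81) and 0.43 (standard error 0.29, 95% interval -0.24 to 1.10). Neither passed the test (adjusted p = 0.245 and 0.194, edgeR), and their libraries overlapped between conditions. These separate values depend on how reads were divided between the copies. Their counts were not added together, so a change of the pair as a whole was not tested. NoSucrose replicate 1 was the lowest NoSucrose library for MPH2 (2.86 CPM) and the highest for MPH3 (7.49 CPM). Without it the log2 fold change was 0.51 for MPH2 (adjusted p = 0.0137, edgeR) and 0.02 for MPH3 (adjusted p = 0.915, edgeR), both below the fold threshold.

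IMA4, an isomaltase gene whose coding sequence is 100% identical to that of IMA3, was assigned 6.99, 8.86 and 9.12 CPM in Sucrose and 51.2, 53.5 and 42.2 CPM in NoSucrose replicates 1, 2 and 3. Its counts cannot be attributed to one of the 2 loci. It rose 5.84-fold (95% interval 4.76 to 7.15, adjusted p = 9.55e-07, edgeR's quasi-likelihood test), more than IMA1 or IMA5. IMA2, with 56.1% of its windows shared with IMA4, rose 2.07-fold (95% interval 1.76 to 2.44, adjusted p = 2.83e-05, edgeR). Its log2 fold change of 1.05 lay so near the threshold that it fell to 0.98, and lost the call, without Sucrose replicate 2. With IMA1, IMA2 and IMA4 added together, the isomaltases stood at 26.9, 28.7 and 29.7 CPM in Sucrose and at 100.5, 102 and 84.4 CPM in NoSucrose replicates 1, 2 and 3. The sum rose 3.35-fold (95% interval 2.94 to 3.82, adjusted p = 7.19e-07, edgeR's quasi-likelihood test). The summed isomaltases thus rose by less than the maltase pair and by less than SUC2, MAL11 or MAL31. This did not hold for IMA4 alone, whose 5.84-fold increase lay above the 5.08-fold of the maltase pair, with overlapping intervals.

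**Figure D3:**
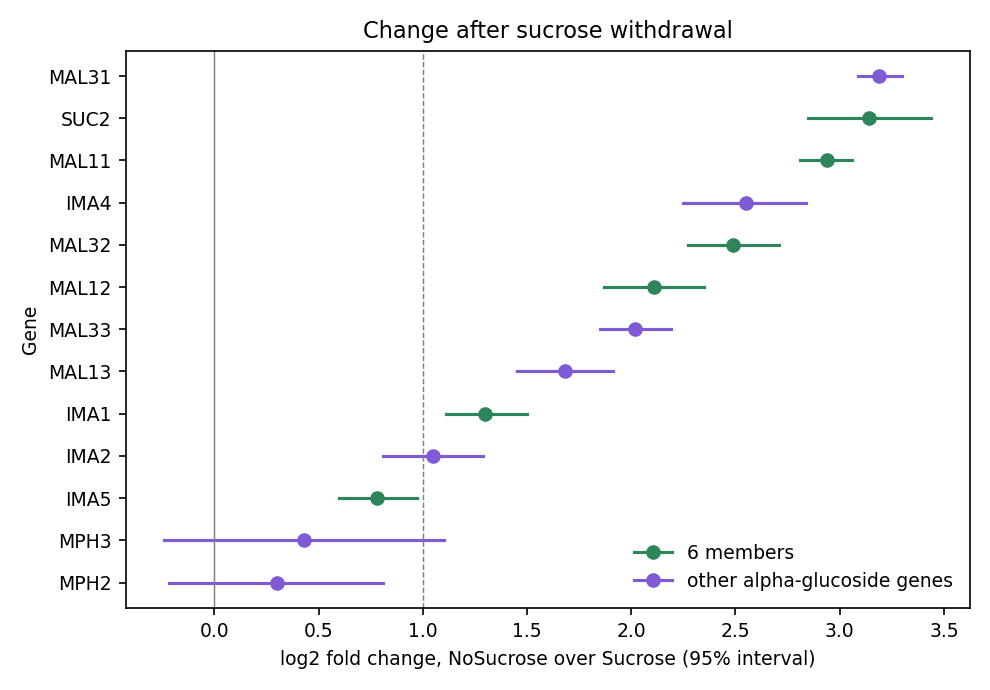
Log2 fold change (NoSucrose over Sucrose) of the 6 genes and of the 7 other tested α-glucoside genes, with 95% intervals from edgeR. The dashed line marks a fold change of 2. MAL31, SUC2 and MAL11 lead with 3.19, 3.14 and 2.94, IMA5 lies at 0.78 below the line, and the intervals of MPH2 and MPH3 include 0.

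Of the 6 genes, SUC2 lies farthest from a chromosome end, at 37.4 kb. Within that distance, which was set by the 6 genes themselves, lie 8.29% of 6008 annotated coding genes. MAL12, MAL11, MAL13 and IMA1 form a cluster on chromosome VII, and MAL32, MAL31 and MAL33 form a second cluster on chromosome II. In each cluster the transporter gene and the maltase gene are transcribed away from each other, from 785 bases between MAL11 and MAL12 and from 875 bases between MAL31 and MAL32. In both clusters the order of the log2 fold changes was transporter, maltase, activator: 2.94, 2.11 and 1.68 on chromosome VII and 3.19, 2.49 and 2.02 on chromosome II. The summed pair lay at 2.34, between the transporters and the activators. That sum pools both clusters, so the place of each maltase within its own cluster still depends on the division of reads.

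**Figure D4:**
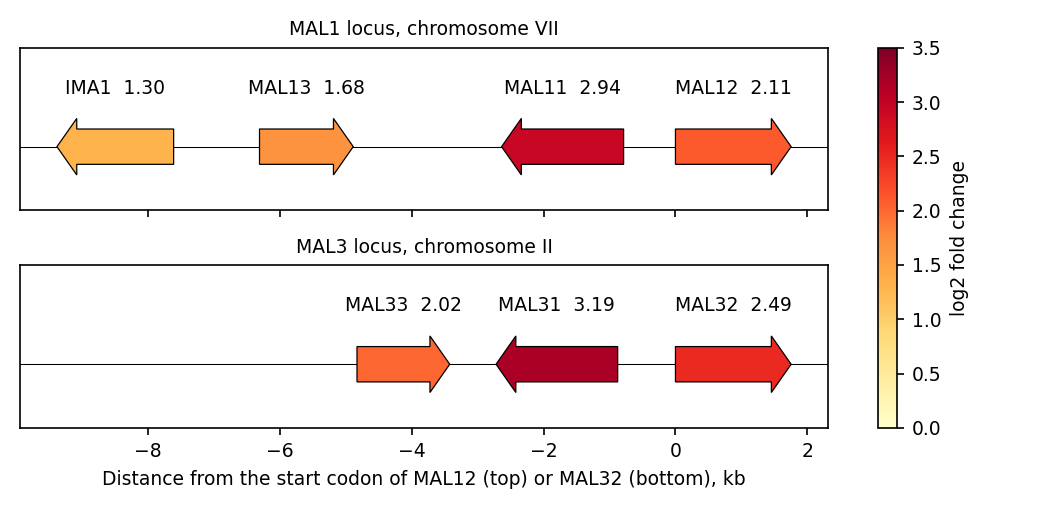
Maps of both MAL clusters, to scale, with distance in kb from the start codon of MAL12 or MAL32. Arrows point in the direction of transcription, and their colour and the printed value give the log2 fold change. The transporters MAL11 (2.94) and MAL31 (3.19) are the darkest in their clusters, and IMA1 (1.30) is the palest.

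The increase did not extend evenly to the nearby genes that were tested. The 2 nearest annotated genes on each side of each member were taken, and 10 of those that are not members were tested. Of these, 4 were called upward and none downward, against 12.7% and 6.03% of all tested transcripts. They were MAL13 and MAL31, already described, and NIT1 and POT1 near SUC2. The genes directly flanking SUC2 were not tested, nor was any on the outer side of MAL32. NIT1, a nitrilase gene, rose 2.43-fold (95% interval 2.06 to 2.88, adjusted p = 1.11e-05, edgeR's quasi-likelihood test). POT1, which encodes the peroxisomal thiolase of fatty acid β-oxidation and lies 1207 bases to the right of SUC2, went from between 0.992 and 1.42 CPM to between 291 and 522 CPM. Of the neighbours tested, none was called around IMA5 or at the outer sides of MAL12 and IMA1.

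The 600 bases before each start codon were searched on both strands for the hexamer GCGGGG, for GTGGGG, for CCGGGG and for CTGGGG, the core letters bound by Mig1 and its relatives. At least 1 match was found for all 6 genes and for 27.8% of 6005 annotated genes. SUC2 and IMA1 had 3 matches each, and 5.23% of all genes had 2 or more. Within each of these upstream stretches no match overlapped another, but MAL11 and MAL12 share 1 site. A match is only a run of letters, and binding was not measured. The stretches of SUC2, the most abundant transcript, are shown with those of the MAL genes on the strand of each gene, with the match in capitals.
SUC2, chrIX:36874-36903: gcttccattattCCCCGCatttttattact
SUC2, chrIX:36934-36963: ttaggaaattatCCGGGGgcgaagaaatac
SUC2, chrIX:36968-36997: agcgttaatcgaCCCCACgtccagggtttt
MAL12, chrVII:1076292-1076321: aattttcgcggaCCCCACacaattaagaat
MAL32, chrII:805044-805073: agttttcgcggaCCCCACacaattaagaat
MAL11, chrVII:1076292-1076321: attcttaattgtGTGGGGtccgcgaaaatt
The first bases of the SUC2 matches stand 499, 439 and 405 bases before the start codon. MAL12 and MAL32 have their match at the same distance, 295 bases. The match of MAL11 is that of MAL12 read on the other strand, since both genes share the region between them. IMA5 had 1 match, at 373 bases.

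Among 22 regulators of SUC2, all tested, 3 were called as increased and 1 as decreased, near the 12.7% and 6.03% of all tested transcripts called in those directions. Their median log2 fold change was 0.33. MIG2, a repressor of SUC2, fell from 44.0 ± 10.9 CPM in Sucrose to 11.5 ± 3.63 CPM in NoSucrose (SD, n = 3 each), with no overlap. The log2 change was -1.95 ± 0.25 (SE, edgeR, adjusted p = 1.52e-04). Its relative MIG3 rose 2.34-fold (95% interval 1.71 to 3.19) from a low level, between 2.98 and 4.70 CPM. NRG1, which also encodes a repressor that works with Cyc8-Tup1, rose 6.48-fold (95% interval 5.66 to 7.41). SIP2, a β subunit of the Snf1 kinase complex, rose 2.97-fold (95% interval 2.69 to 3.28). The calls comprised 3 of the 12 repression genes, 1 of the 5 genes of the Snf1 complex and 0 of the 5 of the SWI/SNF chromatin remodeling complex, which is required for SUC2 expression, against 18.7% of all tested transcripts. The SWI/SNF log2 fold changes lay between -0.02 and 0.75. Transcript levels do not measure the activity of these proteins.

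The transcripts most like each gene were found by the root mean square difference of log2 CPM over the 6 libraries, after each was centred on its own mean. With 2 conditions, this measure mostly compares the size of the change. ECI1, OPI10 and ALD4 were nearest to SUC2, at 0.09, 0.10 and 0.10. ECI1 encodes a peroxisomal enoyl-CoA isomerase and ALD4 the major mitochondrial aldehyde dehydrogenase, which went from 406 to 3621 CPM on average. SYM1, GLG1 and GLK1 were nearest to MAL11, between 0.07 and 0.08, of which GLG1 primes glycogen synthesis and GLK1 encodes glucokinase. Nearest to MAL32 were ATG8, MHO1 and ECL1, and nearest to MAL12 were ABM1, ATG14 and PCD1. IMA1 lay closest to ATG2, ADR1 and PEP12, all at 0.04, and IMA5 to APC4, ARR2 and PEX3, between 0.03 and 0.04. None of these 18 nearest transcripts was itself one of the 6.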

How the data were processed

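The members and gene lists were chosen with earlier results of these data known. The authors trimmed reads with Flexbar, assigned them with Salmon to R64-1-1 transcripts, and deposited the estimated counts (Salmon's expected counts) of 5113 genes and of the 5028 passing their filter. Neither table is normalized, whatever its name says. Salmon's split of reads between near-identical genes is itself an estimate, which affects MAL12, MAL32 and the IMA genes.

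Gene names and values are out of register in the filtered table, where 6 rows carried their own name. A row took its name from the single gene of the unfiltered table with the same 6 values, compared in any order. Samples followed the filtered table's headers, under which all 6 values matched, to a relative 1e-05, for 1999 of 1999 genes of a shortened supplementary copy.

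Rounded counts passed filterByExpr at a min.count of 15 and a min.total.count of 20 for 5011 genes (median count 2065). TMM scaling and the glmQLFit and glmQLFTest models, with condition as the only term, used edgeR 4.0.16 under R 4.3.3. Standard errors were obtained from each log2 fold change and its F statistic, as |log2 fold change|/sqrt(F). For log2 CPM the prior count was 2. These steps were tested on simulated data. Replicates are separate cultures per the study's methods. Positions, 50-base windows and all printed sequences come from RefSeq's R64 assembly, in which 5009 gene names matched. Alternatives were other scalings, no filter, DESeq2 1.42.0, a replicate block, any fold change, each library left out, and summed copies.

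Named genes are the 6 members, the other α-glucoside genes, the called regulators and neighbours, the 3 nearest profiles of each member, and the strain markers. Within each list, every gene that was tested is counted.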

Additional observations from a re-analysis of the deposited data

How the results depend on the processing

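Under RLE, upper quartile and library size scaling, no filter, DESeq2, the replicate block and with each library left out in turn, the 6 genes kept their direction and their side of the thresholds, and 5 remained called. The log2 fold change of SUC2 lay between 3.04 and 3.28, that of MAL11 between 2.91 and 3.05, of the summed MAL12 and MAL32 pair between 2.27 and 2.46, of IMA1 between 1.26 and 1.42 and of IMA5 between 0.74 and 0.90. Without the fold threshold IMA5, at 0.78, also passed, as did 42.2% of all transcripts in that direction. Added to its relatives IMA2 and IMA4, IMA1 had 1.75 in place of 1.30. Scaling by library size alone moved the median of all genes from 0.03 to 0.14 and the calls from 635 increased and 302 decreased to 733 and 201. The deviations of same-numbered libraries had r of -0.14, 0.00 and 0.04 across genes, and those of differently numbered libraries lay between -0.33 and 0.27. With 3 libraries per condition, these values cannot show whether same-numbered cultures were handled together. With the replicate number as a block, SUC2 had a log2 fold change of 3.13, 5 of the 6 genes were called, and no call changed among them or the other α-glucoside genes. Of the other α-glucoside genes, IMA2 alone lost its call, at 0.98 without Sucrose replicate 2. With a prior count of 0.5, no pair of genes changed direction. The 3 libraries per condition limit every permutation test to p = 0.1. Counting could not separate the coding sequences of IMA3 and IMA4, and had few distinguishing bases for MPH2 against MPH3 and MAL12 against MAL32.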
